A study of Mus musculus with 6 samples.

Results

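The genes described here make phosphatidylethanolamine and phosphatidylcholine, and were followed in MIN6 cells, an insulin-producing line from a mouse beta cell tumour, after knockdown of TDP-43, an RNA-binding protein whose gene is Tardbp. The members were 8 named genes, Etnk1, Etnk2, Chka, Chkb, Pcyt2, Pcyt1a, Cept1 and Pisd, and every probe set of the array that the platform annotation assigns to one of them and to no other gene. This gave 16 probe sets of 7 genes, out of 45101 probe sets on the array and 18194 genes named by a probe set of their own. Etnk2 had no probe set that names it in the annotation used and was not analysed here. Etnk1 headed the list because its difference between the groups was already known, so the values of all members are given as a description of these arrays. Where a member is said to lie past a threshold, this places it in the fit over all genes and is no independent test of it.

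On 3 arrays the cells had received an siRNA against TDP-43 and on 3 a control siRNA, in both cases 100 pmol by electroporation. Total RNA was read as biotin-labelled cRNA on Affymetrix mouse arrays, in units of MAS5 signal, a linear brightness per probe set. Nothing in the labels says that replicates came from separate cultures or occasions, so the spread between them may be technical. The position targeted by the siRNA and its effects on other transcripts are not given in the sources used here, and an effect of lower TDP-43 cannot be told apart from such effects.

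Phosphatidylcholine and phosphatidylethanolamine are the most abundant phospholipids of mammalian membranes, including those of insulin granules. In the CDP-alcohol route, also called the Kennedy pathway, a kinase phosphorylates choline or ethanolamine, a cytidylyl-transferase turns the product into CDP-choline or CDP-ethanolamine, and a phosphotransferase joins the head group to diacylglycerol. Cells also make phosphatidylethanolamine in mitochondria, where phosphatidylserine is decarboxylated.

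As deposited, every array had a trimmed mean of 499.9, so that likeness in scale is no check on the arrays. Their median signals lay between 72.3 and 79.97, and their number limits the precision. Tardbp fell on all 5 of its probe sets, to between 37.0% and 55.7% of the control mean. On its brightest probe set, 1423723_s_at, the signals were 2257, 2249 and 1836 after TDP-43 siRNA, against 3748, 3940 and 3699 after control siRNA (limma adjusted p = 0.00216 over probe sets). Beta cell markers gave a summed signal of 96413 to 103560 after TDP-43 siRNA and of 97461 to 102927 after control siRNA, over 11 genes, Iapp, Pdx1 and Slc2a2 among them. None of the 28 markers of beta, other islet, acinar, duct, fibroblast, endothelial or immune cells that were tested passed the threshold. Over all genes 0.745% did, so the absence of a call among 28 markers does not show an unchanged cell mix. Acinar and duct markers summed to 5406 to 6523 after TDP-43 siRNA and to 5918 to 6626 after control siRNA. Most of this sum was Krt7, with means of 5287 after TDP-43 siRNA and 5648 after control siRNA. The group means of Cela1, Cela3b, Prss2 and Car2 lay between 63.7 and 202. Cpa1, Cela2a, Ptf1a, Krt19 and Cftr lay below the filter on low values. Markers of other islet cells summed to 29383 to 32248 after TDP-43 siRNA and to 31950 to 34239 after control siRNA. Nearly all of this sum was Ttr and Gcg. Ttr had means of 21924 after TDP-43 siRNA and 22767 after control siRNA, and Gcg of 8165 and 9264. Hhex, Ppy and Ghrl lay below the filter. Fibroblast, endothelial and immune markers summed to 361 to 458 after TDP-43 siRNA and to 357 to 525 after control siRNA, with Col1a1, Col3a1, Pecam1, Cdh5 and Ptprc below the filter. Of the 28 markers, 4 had groups that did not overlap, 14.3% of them, where 18.3% of all genes did. They were Slc30a8, the granule zinc transporter of beta cells (9082 after TDP-43 siRNA and 7656 after control siRNA), Car2 (108 after TDP-43 siRNA and 174 after control siRNA), Col1a2 (56.2 after TDP-43 siRNA and 93.9 after control siRNA) and Sst (62.4 after TDP-43 siRNA and 25.1 after control siRNA), and their part in the results was not tested. Control replicate 3 stood apart from the other control arrays in some genes. Ldha, the lactate dehydrogenase subunit A, read 4367, 4353 and 4547 after TDP-43 siRNA, against 4780 on that array and 1829 and 1884 on the other control arrays. In such genes a state of the cells and an effect of the siRNA cannot be told apart. Differences without control replicate 3 are given beside each member.

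Etnk1, the ethanolamine kinase that starts the CDP-ethanolamine route, was lower after TDP-43 siRNA, while the other 6 members measured had log2 differences between -0.17 and 0.09 on their brightest probe sets. Chka had further probe sets at -0.30 and -0.38, and averaged over probe sets it was at -0.28 beside Etnk1 at -0.355. In RNA from whole cultures, fewer cells that express a gene and less of its RNA per cell cannot be told apart. On its brightest probe set, 1433514_at, Etnk1 read 3345, 3530 and 2949 after TDP-43 siRNA, against 4629, 4580 and 4922 after control siRNA. All TDP-43 siRNA arrays lay below all control arrays, and the gap between the groups was wider than the spread within either. The means were 3275 ± 297 after TDP-43 siRNA and 4710 ± 185 after control siRNA (SD, n = 3 each), which leaves 69.5% of the control signal. Set against the control mean, the TDP-43 siRNA arrays held 71.0%, 74.9% and 62.6% of the Etnk1 signal.

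**Figure D1:**
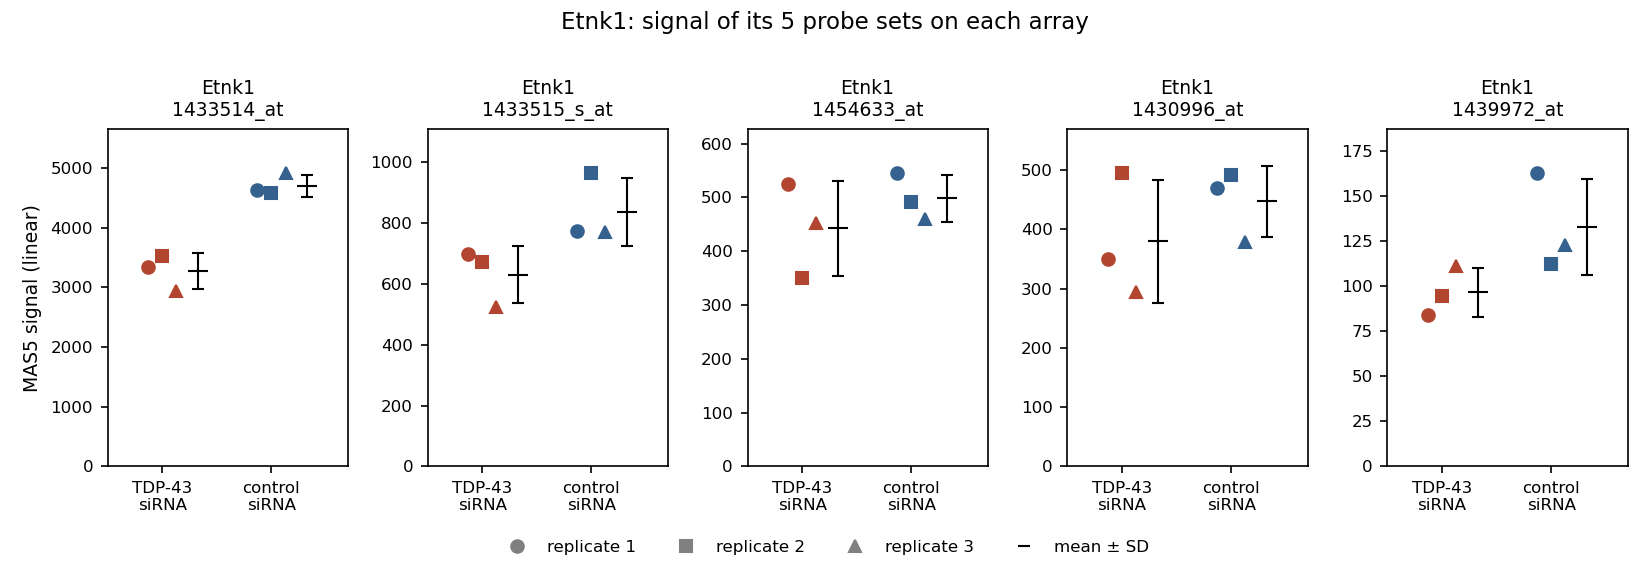
MAS5 signal (vertical axes, linear, each from 0) of the 5 Etnk1 probe sets on each array, TDP-43 siRNA in red and control siRNA in blue, with marker shape for the replicate number and the group mean ± SD beside the points. The groups are apart on 1433514_at, 1433515_s_at and 1439972_at, and overlap on 1454633_at and 1430996_at.

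On the log2 scale, after adding a pseudocount of 12 to each signal, the Etnk1 difference was -0.53 (TDP-43 siRNA minus control siRNA, SE 0.07, n = 3 per group), with a 95% interval from -0.69 to -0.36. Its rank from the most negative was 155 among the 12619 genes tested, whose median difference was 0.02. Of the 7 members in the fit, 1 lay past the threshold of an adjusted p of 0.05 across all genes, Etnk1, where 0.745% of all genes did. Members chosen with this contrast known cannot be read against that share. Etnk1 kept its direction, but not its place past the threshold, without control replicate 1 (difference -0.54), in a variance model without the intensity trend and when its probe sets were averaged (difference -0.355). Without control replicate 3 the Etnk1 difference was -0.49, and without both arrays numbered 3 it was -0.42.

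The 5 probe sets of Etnk1 all had negative differences, of unequal size and precision. In their design, 1433514_at, 1433515_s_at and 1454633_at were designed from the same source sequence, 1430996_at and 1439972_at each from another, and the suffix s marks probes that may also read other transcripts. The s probe set, 1433515_s_at, read 698, 671 and 523 after TDP-43 siRNA, against 774, 966 and 772 after control siRNA. Its groups did not overlap, and its log2 difference was -0.41 (SE 0.13). On 1454633_at, from the same source sequence, signals were 526, 350 and 453 after TDP-43 siRNA, against 546, 491 and 460 after control siRNA. These groups overlapped, with TDP-43 siRNA replicate 1 above 2 of the control arrays, and the log2 difference was -0.18 (SE 0.14).

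The probe set 1430996_at read 349, 496 and 294 after TDP-43 siRNA, against 471, 493 and 379 after control siRNA. Here TDP-43 siRNA replicate 2 was the highest of all 6 arrays, and the log2 difference was -0.25 (SE 0.18). The dimmest, 1439972_at, read 83.9, 94.4 and 111 after TDP-43 siRNA, against 163, 112 and 123 after control siRNA. The groups were apart by a narrow margin, since TDP-43 siRNA replicate 3 at 111.07 lay just under control replicate 2 at 112.07, and the log2 difference was -0.41 (SE 0.18). Against the control means, Etnk1 signal after TDP-43 siRNA was 69.5% on 1433514_at, 75.3% on 1433515_s_at, 72.8% on 1439972_at, 84.9% on 1430996_at and 88.8% on 1454633_at. In a fit over 27022 probe sets, only 1433514_at of the 16 member probe sets lay past the threshold, where 0.585% of all probe sets did. The 95% intervals of 1433515_s_at, 1430996_at and 1439972_at hold the difference of the brightest probe set. That of 1454633_at ends just short of it, at -0.50. Intervals of 1454633_at, 1430996_at and 1439972_at also reached positive values, up to 0.14, 0.14 and 0.0025, and so held no difference as well. Only that of 1433515_s_at stayed negative, ending at -0.12.

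**Figure D2:**
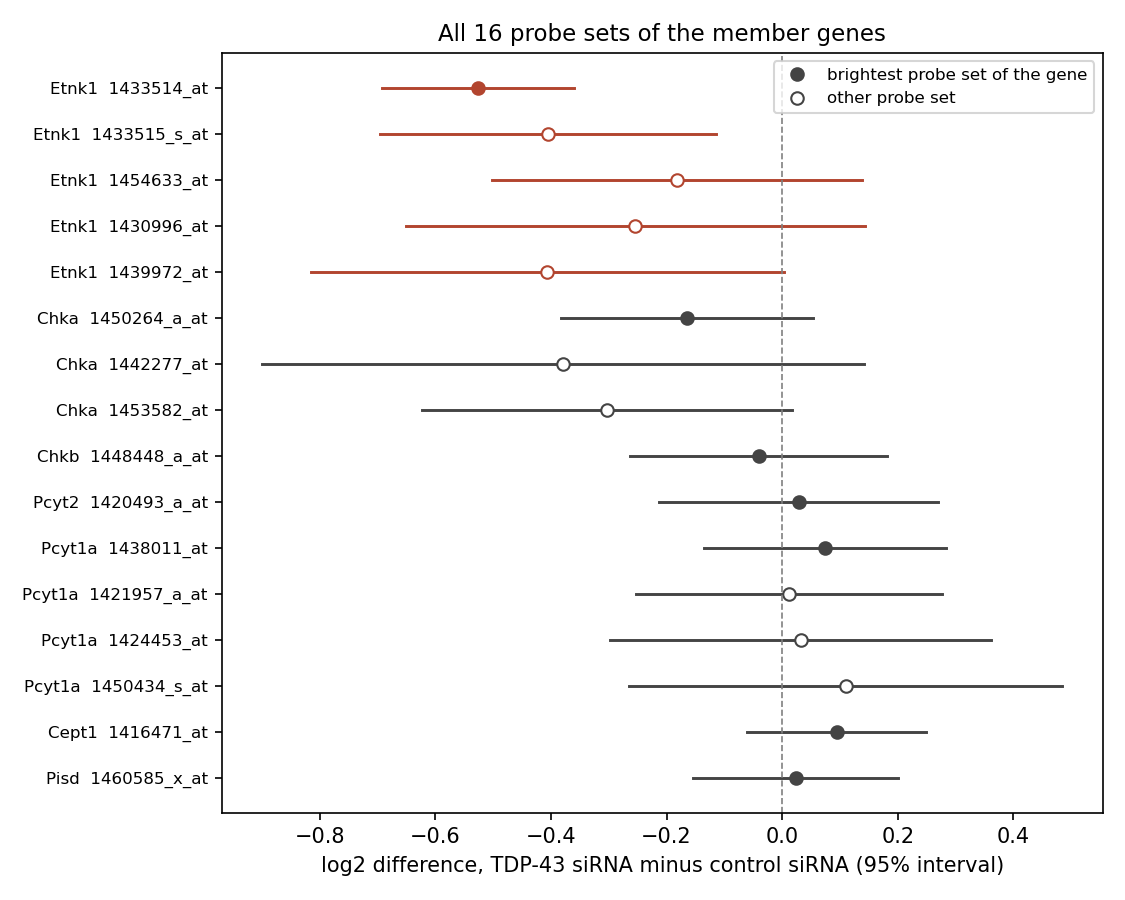
Log2 difference, TDP-43 siRNA minus control siRNA (horizontal axis), with its 95% interval for all 16 member probe sets, from a limma fit over 27022 probe sets; filled points mark the brightest probe set of each gene and Etnk1 is in red. The Etnk1 probe sets run from -0.53 to -0.18 and those of Chka from -0.38 to -0.17, and the points of Chkb, Pcyt2, Pcyt1a, Cept1 and Pisd lie between -0.04 and 0.11.

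The choline kinases came next. Chka, choline kinase alpha, which can also phosphorylate ethanolamine, read 1268, 1448 and 1387 after TDP-43 siRNA, against 1519, 1363 and 1740 after control siRNA on its brightest probe set, 1450264_a_at. The groups overlapped, because control replicate 2 lay below 2 of the TDP-43 siRNA arrays. The log2 difference of Chka was -0.17 (SE 0.10), with a 95% interval from -0.38 to 0.05. It was -0.08 without control replicate 3, the array with the highest Chka signal.

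The other probe sets of Chka were also lower on average, with overlapping groups. On 1442277_at Chka read 152, 285 and 267 after TDP-43 siRNA, against 344, 228 and 336 after control siRNA, a log2 difference of -0.38 (SE 0.23). TDP-43 siRNA replicate 1 was the lowest of the 6 arrays there, at 50.1% of the control mean, and the other TDP-43 siRNA arrays were at 94.1% and 88.1%. On 1453582_at Chka read 141, 177 and 138 after TDP-43 siRNA, against 196, 199 and 172 after control siRNA, a log2 difference of -0.30 (SE 0.14). Only TDP-43 siRNA replicate 2 lay within the control range on that probe set. Averaged over its 3 probe sets, Chka differed by -0.28 (SE 0.12).

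Chkb, choline kinase beta, read 1346, 1322 and 1591 after TDP-43 siRNA, against 1359, 1386 and 1637 after control siRNA. The replicate 3 array was the highest of each group, and the ranges nearly coincided. The log2 difference of Chkb was -0.04 (SE 0.10, 95% interval from -0.26 to 0.18). Its sign turned in 2 of 18 alternative settings, within a range from -0.13 to 0.04, with 0.04 reached without control replicate 3. A further probe set, 1418328_at, names Chkb together with Cpt1b, the muscle-type carnitine palmitoyltransferase, and the gene Gm44502, which overlaps Chkb in the RefSeq table, so it is no member. It read 99.8, 102 and 94.8 after TDP-43 siRNA, against 76.1, 90.2 and 71.7 after control siRNA (log2 difference 0.28, SE 0.17), and these transcripts cannot be told apart on it.

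For both cytidylyl-transferases the groups overlapped on every probe set. Pcyt2, which makes CDP-ethanolamine directly after the Etnk1 step, read 1097, 1184 and 1322 after TDP-43 siRNA, against 1122, 1059 and 1362 after control siRNA. As for Chkb, the replicate 3 array was the highest of each group. The log2 difference of Pcyt2 was 0.03 (SE 0.11), and its 95% interval ran from -0.21 to 0.27. It moved to 0.14 without control replicate 3, and its sign turned in 3 of 18 alternative settings, down to -0.045.

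Pcyt1a, the alpha form of the enzyme that makes CDP-choline and a main control point of phosphatidylcholine synthesis, read 624, 679 and 591 after TDP-43 siRNA, against 641, 595 and 561 after control siRNA on 1438011_at. The groups overlapped, and the log2 difference was 0.07 (SE 0.09, 95% interval from -0.13 to 0.28), or 0.03 without control replicate 3. Its other 3 probe sets, of which 1421957_a_at and 1450434_s_at share a source sequence, differed by 0.01, 0.03 and 0.11, each with overlapping groups. On 1450434_s_at Pcyt1a read 251, 185 and 177 after TDP-43 siRNA, against 192, 157 and 214 after control siRNA, so that TDP-43 siRNA replicate 1 alone stood above the controls.

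Cept1, the phosphotransferase that takes either CDP-choline or CDP-ethanolamine, read 1354, 1312 and 1312 after TDP-43 siRNA, against 1265, 1191 and 1270 after control siRNA. All TDP-43 siRNA arrays lay above all control arrays, by a small margin. The log2 difference of Cept1 was 0.09 (SE 0.07), with a 95% interval from -0.06 to 0.24, and its range over 18 alternative settings was 0.07 to 0.12. Without control replicate 3 it was 0.11. Together with Etnk1, 2 of the 7 members had groups that did not overlap, where 18.3% of all genes did. Over probe sets it was 4 of 16, where 17.2% of all probe sets did.

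Pisd, the mitochondrial phosphatidylserine decarboxylase, had a single probe set of its own, 1460585_x_at, which read 2191, 2558 and 2511 after TDP-43 siRNA, against 2243, 2368 and 2525 after control siRNA. The groups overlapped and the log2 difference was 0.02 (SE 0.08, 95% interval from -0.15 to 0.20). It was 0.07 without control replicate 3, and its sign turned in 3 of 18 alternative settings, down to -0.02. The suffix x marks probes that can cross-hybridise, and the annotation lists pseudogene copies of mouse Pisd, some on a shared probe set, so the value is uncertain. A probe set that names Pisd with the copies Pisd-ps1 and Pisd-ps3, 1426387_x_at, read 4574, 5453 and 5604 after TDP-43 siRNA, against 4552, 3962 and 5667 after control siRNA. Its log2 difference was 0.15 (SE 0.12), and its groups overlapped as well.

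**Figure D3:**
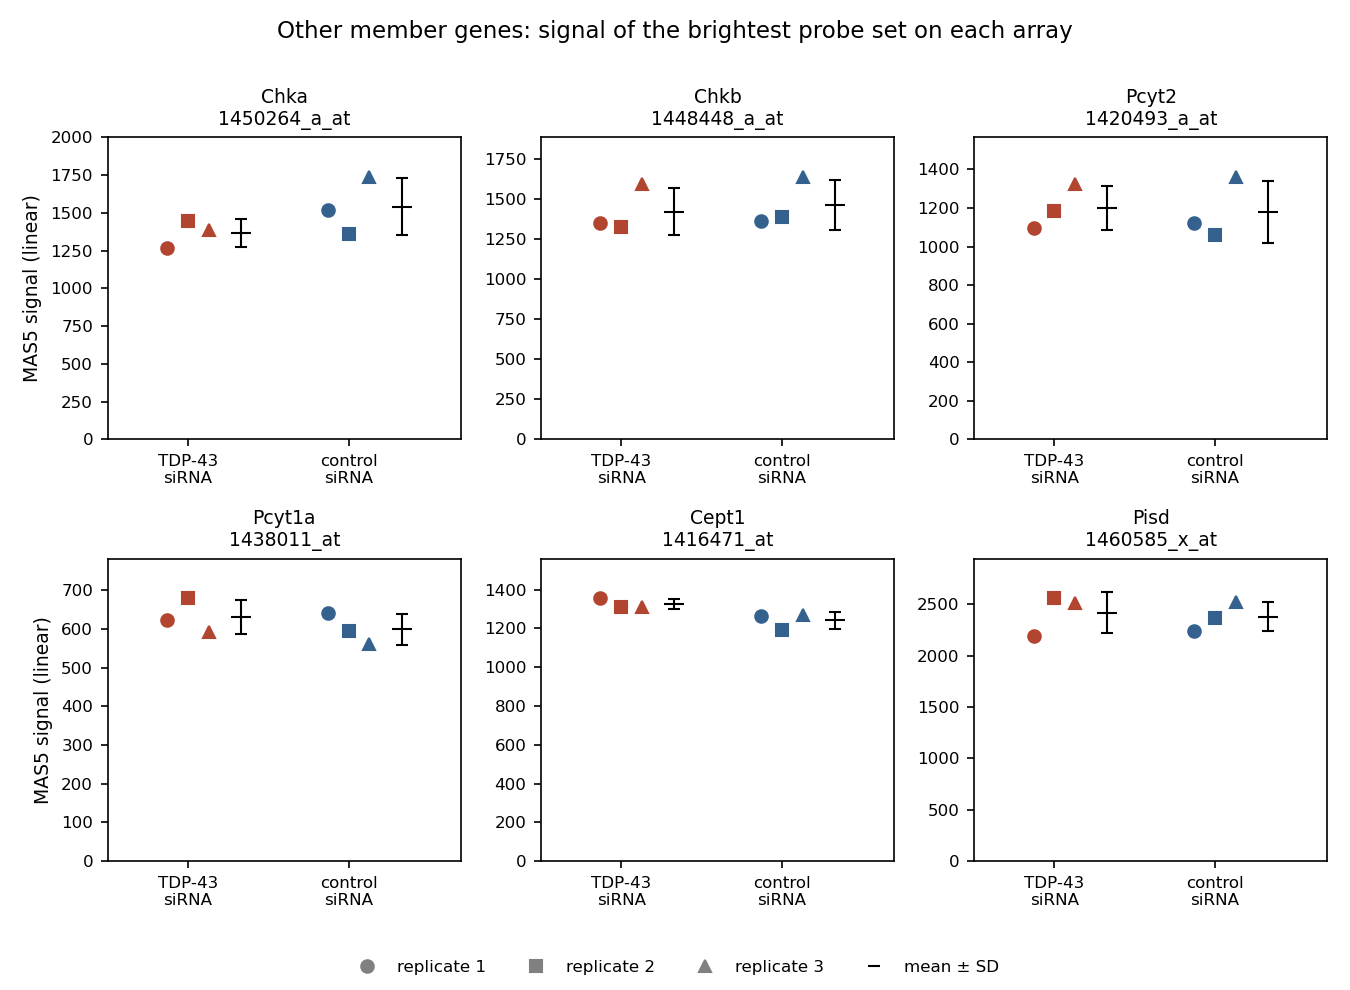
MAS5 signal (vertical axes, linear, each from 0) on each array for the brightest probe set of the other 6 member genes measured, TDP-43 siRNA in red and control siRNA in blue, with marker shape for the replicate number and the group mean ± SD. The groups overlap for Chka, Chkb, Pcyt2, Pcyt1a and Pisd, and for Cept1 the TDP-43 siRNA arrays lie at 1312 to 1354, just above the control arrays at 1191 to 1270.

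Ordered by the log2 difference of the brightest probe set, the members ran from Etnk1 at -0.53 through Chka at -0.17, Chkb at -0.04, Pisd at 0.02, Pcyt2 at 0.03 and Pcyt1a at 0.07 to Cept1 at 0.09. The interval of Etnk1 had its upper end at -0.36, and that of Chka its lower end at -0.38, so these neighbours' intervals just met. Intervals of the members from Chka to Cept1 all overlapped one another and all held 0. None of these 6 lay past the threshold with all arrays, nor in any of the 18 alternative settings. The absence of a call does not show that a gene was unaffected: the interval of Pcyt2, for instance, leaves room for any difference from -0.21 to 0.27.

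Beyond the members, 85 other genes of phospholipid metabolism were tested, in 9 lists arranged by step. Cds2, a CDP-diacylglycerol synthase that draws phosphatidate away from diacylglycerol, was higher after TDP-43 siRNA and past the threshold. The other 84 did not pass. The 1 gene past it is 1.18% of the list, where 0.745% of all genes passed. The median log2 difference was 0.01, with 45 of the 85 genes above 0 and 40 of the 85 below 0. Over all genes the median was 0.02, and 45% of them lay below 0. Groups did not overlap for 13 of the 85 genes, 6 higher and 7 lower, a share of 15.3% where 18.3% of all genes did. On its brightest probe set, 1438957_x_at, whose suffix x marks probes that can cross-hybridise, Cds2 read 4474, 4249 and 4950 after TDP-43 siRNA, against 2599, 2699 and 3154 after control siRNA, a log2 difference of 0.69 (SE 0.09, limma adjusted p = 0.00534). With probe sets averaged per gene or without the intensity trend, 0 of the 85 passed. The other 5 Cds2 probe sets ran from -0.07 (1452832_s_at) to 0.695 (1434256_s_at), none past the threshold over all probe sets, and averaged over its 6 probe sets Cds2 was at 0.44 (SE 0.09, limma adjusted p = 0.0818). Without control replicate 3, 4 passed, all higher: Cds2, the phosphatidate phosphatase Plpp2 at 0.49, the sphingosine phosphate lyase Sgpl1 at 0.52 and the acyltransferase Mboat2 at 0.36. Without both arrays numbered 3, Cds2 and Sgpl1 passed. Calls rose over all 12619 genes as well, from 94 with all arrays to 253 without control replicate 3. Without both arrays numbered 3 they came to 214.

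Of the other 4 genes of the CDP-alcohol route and its methylation branch, 0 passed. Pcyt1b, the beta form of the CDP-choline enzyme, was at -0.43 (SE 0.17), with 78.0, 90.4 and 82.1 after TDP-43 siRNA, against 100.9, 123 and 127 after control siRNA. Pemt, which methylates phosphatidylethanolamine to phosphatidylcholine, was at 0.28 (SE 0.15), with 195, 143 and 155 after TDP-43 siRNA, against 136, 128 and 133 after control siRNA. Chpt1, a cholinephosphotransferase, was at -0.12 (SE 0.14), and the list's median was -0.04.

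Of the 3 genes tested in the phosphatidylserine route list, a pseudogene copy among them, 0 passed. This copy, Pisd-ps3, was at 0.19 (SE 0.12) on 1434975_x_at, whose suffix x marks probes that can cross-hybridise. Its other probe sets past the filter ran from -0.28 to 0.14. The phosphatidylserine synthases Ptdss1 and Ptdss2 were at 0.06 (SE 0.07) and -0.03 (SE 0.08). Of 6 genes of choline and organic cation transport 0 passed. The carnitine transporter Slc22a5 was at -0.21 (SE 0.09), and Slc44a2 and Slc44a1 of the choline transporter-like family were at 0.26 (SE 0.11) and -0.10 (SE 0.06). Of 19 genes that supply phosphatidate and diacylglycerol or, as Dgat1 and Dgat2 do, use diacylglycerol, 0 passed and 13 lay above 0. The acyltransferases Agpat2 and Agpat5 were at 0.36 (SE 0.11) and 0.14 (SE 0.07), and Plpp2 at 0.34 (SE 0.12).

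Of 11 acyl chain remodelling genes 0 passed. Mboat2 was nearest to the threshold at 0.31 (SE 0.07, limma adjusted p = 0.0859), with 3166, 3485 and 3243 after TDP-43 siRNA, against 2473, 2664 and 2818 after control siRNA. Lpcat4 was at 0.18 (SE 0.13) and Lpgat1 at -0.05 (SE 0.06). Of 22 turnover genes 0 passed and 13 lay below 0. Smpd4, a neutral sphingomyelinase, was at -0.37 (SE 0.10), Pnpla6, a lysophospholipase also called neuropathy target esterase, at -0.34 (SE 0.10), and the phospholipase Pla2g12a at 0.42 (SE 0.16).

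Of 9 genes listed for use or release of choline and ethanolamine head groups outside the Kennedy pathway 0 passed. This list also held the sphingosine kinases Sphk1 and Sphk2, which act on neither head group. Samd8, which makes the ethanolamine analogue of sphingomyelin, was at -0.34 (SE 0.09). Sgpl1, which releases phosphoethanolamine, the product of Etnk1, from sphingosine phosphate, was at 0.35 (SE 0.13), and the sphingomyelin synthase Sgms1 at 0.15 (SE 0.07). Of the 4 ether lipid genes 0 passed and all lay above 0, Gnpat only just, at 0.01 (SE 0.09). Agps was at 0.43 (SE 0.15), Tmem189, the plasmanylethanolamine desaturase, at 0.23 (SE 0.10) and Far1 at 0.12 (SE 0.07). Groups overlapped for all of them but Tmem189. The other genes of the CDP-diacylglycerol branch lay between -0.17 and 0.02.

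**Figure D4:**
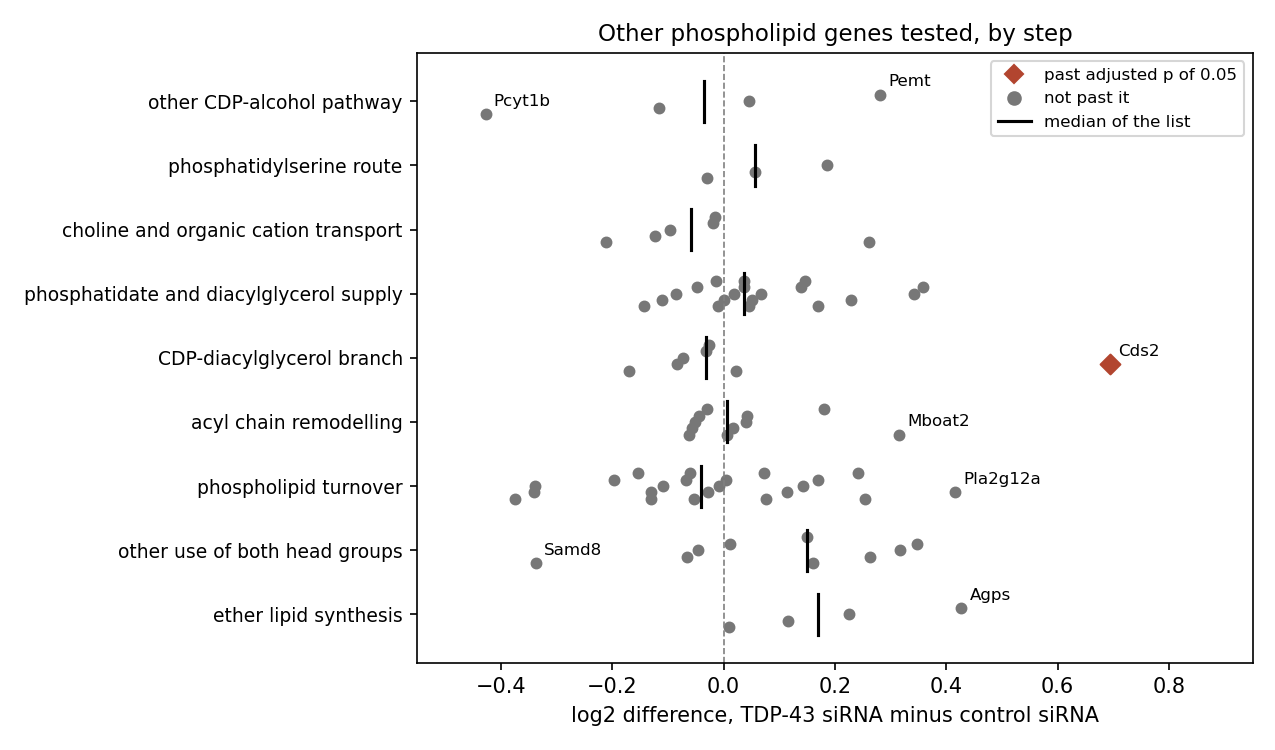
Log2 difference, TDP-43 siRNA minus control siRNA (horizontal axis), of the 85 other phospholipid genes tested, 1 point per gene in 9 lists, with a bar at each list's median. Cds2 at 0.69 is the only point past an adjusted p of 0.05.

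The genes whose profile over the 6 arrays was nearest to that of Etnk1 were picked by the root mean square distance between log2 values, each gene centred on its own mean. They were Lor, the cornified envelope protein loricrin, at a distance of 0.05, H1f2, a linker histone, at 0.05, Cdc42ep4, an effector of the GTPase Cdc42, at 0.06, Akr1a1, an aldehyde reductase, at 0.06, and Wdr37, a WD repeat protein, at 0.07. All 5 had groups apart and were lower after TDP-43 siRNA, as the choice by likeness to Etnk1 requires. Their log2 differences were -0.47 for Lor, -0.57 for H1f2, -0.50 for Cdc42ep4, -0.61 for Akr1a1 and -0.53 for Wdr37. H1f2 read 5155, 5538 and 4992 after TDP-43 siRNA, against 7858, 7531 and 7906 after control siRNA, with TDP-43 siRNA replicate 3 the lowest and control replicate 3 the highest, as for Etnk1. Lor was dim, at 102, 115 and 96.3 after TDP-43 siRNA, against 143, 144 and 160 after control siRNA.

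**Figure D5:**
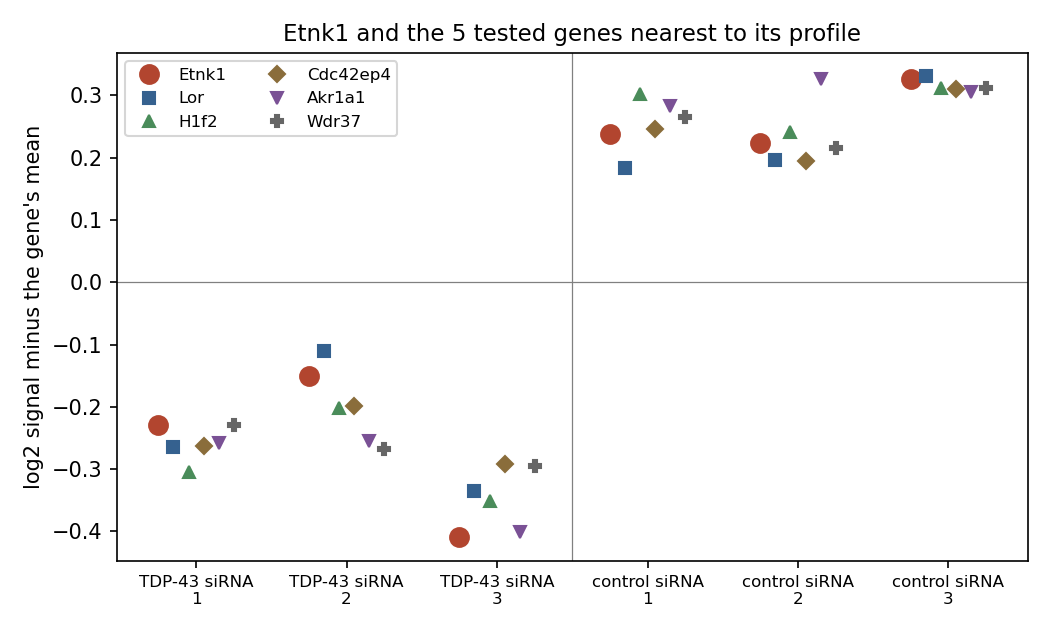
Log2 signal minus each gene's mean over the 6 arrays (vertical axis) for Etnk1 and the 5 nearest genes, array by array, TDP-43 siRNA left of control siRNA. Etnk1 lies between -0.41 and -0.15 after TDP-43 siRNA and between 0.22 and 0.33 after control siRNA.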

How the data were processed

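Transcript levels were measured on 6 arrays, 3 per group as the sample titles give them. The deposited table holds the authors' signal intensity per probe set, linear and made with MAS5 per the submitters' processing notes; version, scaling target and detection calls are not given in the sources used here. As checked, every array's trimmed mean was 499.9.

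Names came from the annotation of the platform, with symbols updated through Entrez numbers (RefSeq table of GRCm38.p6). The pseudocount added before log2 was 12, near the 20th percentile of all signals. Control probe sets and the lowest 40% by mean were left out. All 16 member probe sets passed. Each gene was taken at its brightest probe set, giving 12619 genes. The comparison used limma 3.58.1 under R 4.3.3 (eBayes with an intensity trend, two-sided, Benjamini-Hochberg over all genes, threshold 0.05). Other probe sets come from the same fit over 27022 probe sets. Differences are TDP-43 siRNA minus control siRNA. Plots used matplotlib 3.10.9.

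Named genes are Tardbp, the members, the 5 genes nearest to Etnk1, and up to 3 genes per list with the smallest p (or those past the threshold). Gm44502, Cpt1b, Ldha, Dgat1, Dgat2, Sphk1, Sphk2, Gnpat and the markers were named beside them. The lists named 110 genes, of which 101 had a probe set of their own. Members, lists and tests were chosen with earlier results of these data known. On simulated data for this comparison over 12619 genes, 53% of 100 genes changed by 0.5 on the log2 scale were recovered. Of 100 changed by 1, 79% were recovered, and 2 unchanged genes were called. The noise was drawn independently for each gene and array, with no deviation shared across an array. These shares may therefore not hold for the real arrays. No genome position is reported, since the files name no build.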

Additional observations from a re-analysis of the deposited data

How the results depend on the processing

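Etnk1 was lower in all 18 alternative settings (-0.58 to -0.355) and past the threshold in 15. It was not past it at -0.526 without the intensity trend, at -0.355 with the mean of probe sets, or without control replicate 1, 1 of 6 fits that left out an array (-0.582 to -0.453). The other Etnk1 probe sets, at -0.41 (1433515_s_at), -0.18 (1454633_at), -0.25 (1430996_at) and -0.41 (1439972_at), were not past it either. The cause was not tested. The number of genes past the threshold was 94, and 51 with no filter, 12 without the trend, 161 with array weights, 61 with the mean of probe sets, 208 at a threshold of 0.1, 31 to 253 with an array left out and 214 without both arrays numbered 3, an alternative chosen after seeing the data. The count of other phospholipid genes past it was 1, and 1 with no filter, 0 without the trend, 2 with array weights, 0 with the mean of probe sets, 2 at 0.1, 1 to 4 with an array left out and 2 without both arrays numbered 3. With the replicate number as a block Etnk1 was at -0.526 (SE 0.08) and 123 genes passed. Deviations of same-numbered arrays from their group means correlated at -0.12, -0.14 and 0.24 for replicates 1, 2 and 3. Only for replicate 3 did the TDP-43 siRNA array correlate best with the control array of its own number. Correlations this few cannot decide whether the numbers pair the arrays. The 108 values of the other members under these settings held 0 past the threshold, and the smallest adjusted p was 0.402 (limma). The pseudocount, stricter filter, quantile, median centring and robust settings moved no call of Etnk1 or Cds2. The 5 genes nearest to Etnk1 were the same with a pseudocount of 1.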
